A study of Drosophila melanogaster with 3 samples.

Results

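The genes described are 34 transcription factor genes that pattern the Drosophila melanogaster embryo along its length or act in its neural stem cells, the neuroblasts. They were listed by name and found in the Ensembl annotation of the dm6 assembly, 34 of 13968 protein-coding genes, and they fall into 6 gap, 9 pair-rule, 5 segment polarity and 14 neuroblast genes. The measurement was chromatin immunoprecipitation and sequencing (ChIP-seq) of Su(H), tagged at its C terminus with enhanced green fluorescent protein in a transgenic line that also serves as the only genotype of the study. Whole embryos of both sexes, 0 to 24 h old, gave 3 biological replicates, and the precipitation used an antibody to GFP. All libraries belong to 1 group, so there was no contrast between conditions, and the control library was not analysed here. The labels do not say whether the line still has its untagged Su(H).

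Suppressor of Hairless, or Su(H), binds DNA at the end of the Notch pathway. It acts with the intracellular part of the activated Notch receptor at target genes, and with the co-repressor Hairless in its absence. Segmentation proceeds as a cascade in which gap genes set broad domains, pair-rule genes set stripes in alternate segments, and segment polarity genes fix pattern within each segment. Notch signalling is best known in the embryonic nervous system for limiting how many cells of a proneural cluster become neuroblasts, whose daughters then pass through a timed series of transcription factors. Whole embryos of mixed ages cannot tell strong binding in few cells from weak binding in many.

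The deposited data were peak lists, each peak with the authors' signal value and a summit. The pooled list and each replicate list held 30000 peaks, background included. The thresholded list held 3833 peaks, which were those of highest pooled signal, from 106 to 2733 with a median of 160. A rank counts peaks from the strongest, so a pooled rank of 3833 or less is a thresholded peak. In any list, a summit called past rank 3833 is one at that rank or stronger. In the replicate lists the peak at that rank had a signal of 37.6, 37.8 and 38.0. A gene was given a peak when a summit lay in it or within 2 kb of it. The lists do not give read depth, and nothing states that the signal is scaled for it.

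Of the 34 genes, 5 had a thresholded peak (14.7%), against a background of 33.0% of all protein-coding genes. With the gene alone and no flank the shares were close, 4 of 34 (11.8%) against 11.2%, Dr being lost. The 5 were the segment polarity genes en and inv and the neuroblast genes grh, Dr and pros. None of the 6 gap genes and none of the 9 pair-rule genes had one, while 2 of 5 segment polarity and 3 of 14 neuroblast genes did. The 5 peaks were in the weaker part of the thresholded list, at pooled ranks 2090 to 3640, each with a signal below the list median of 160. No gene of the 34 had one of the 1000 strongest peaks, where the background was 11.6%. Each of the 5 peaks was matched within 200 bp in all 3 replicates (background 32.6% of genes), as were 97.9% of all thresholded summits. Taking the 7666 strongest pooled peaks, a list of doubled length, gave 13 of the 34 genes a peak (38.2%, background 49.1%), the added ones being mid, gsb, opa, slp1, D, SoxN, esg and nub. Differences between the 4 classes were not tested.

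**Figure D1:**
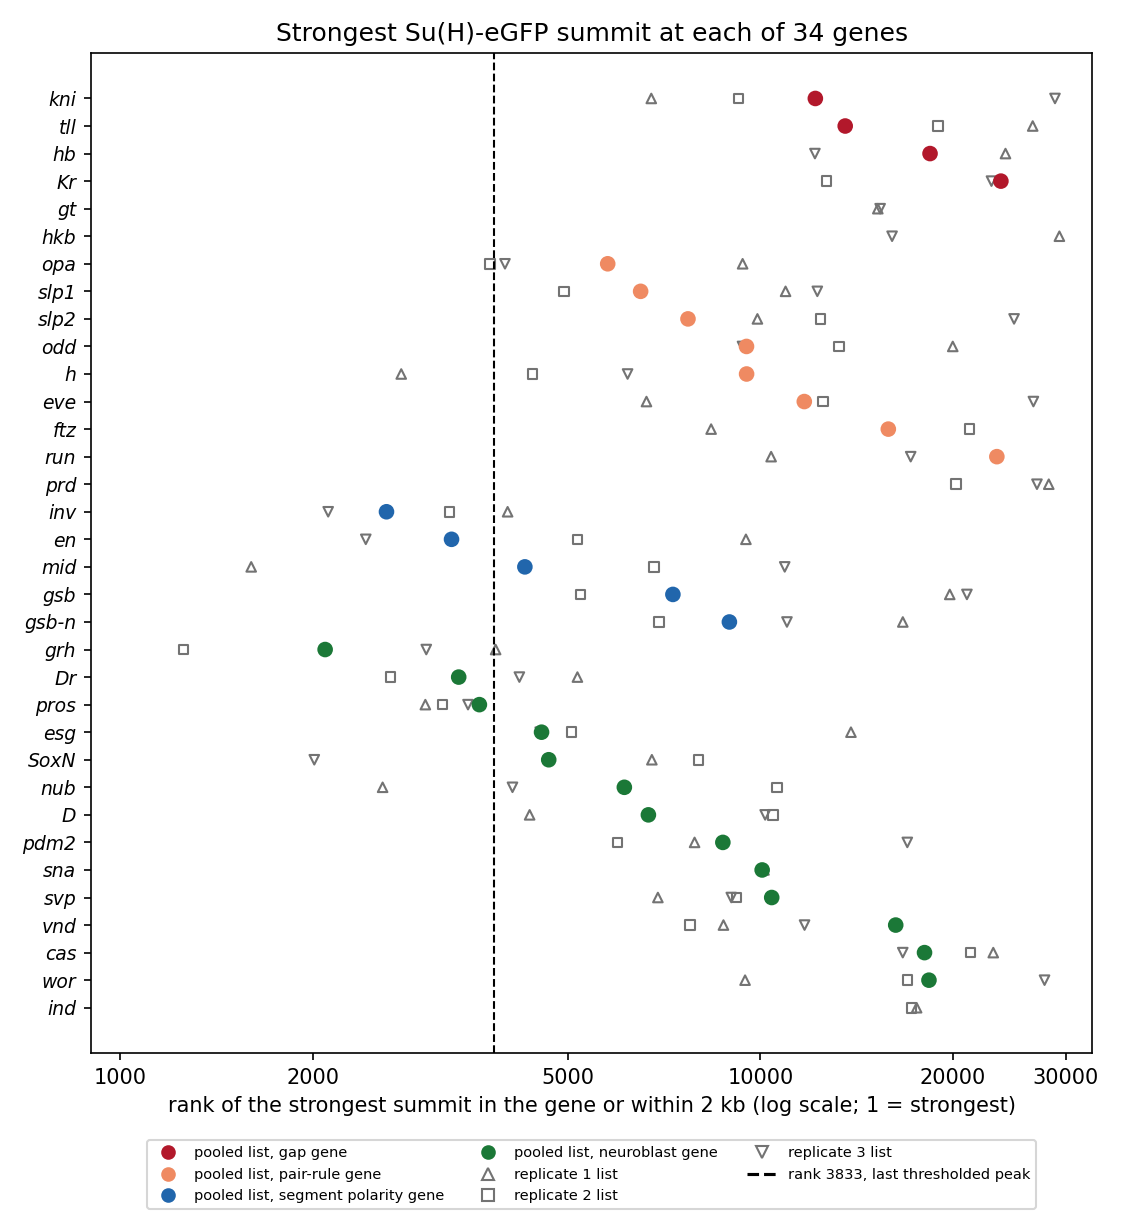
Rank of the strongest summit in each gene or within 2 kb (x axis, log scale, 1 is strongest) for the 34 genes (y axis), as filled circles for the pooled list coloured by class and open symbols for the 3 replicate lists. Circles left of the dashed line at rank 3833 are thresholded. These are the 5 genes grh, inv, en, Dr and pros, and the 4 genes without a circle (gt, hkb, prd and ind) had no pooled summit.

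Sequence at the summits is shown for 2 reasons: no window at these genes held the letters of a Su(H) site, and some held runs of GAGA letters. Each line gives the 201 bp centred on a pooled summit, from the plus strand of dm6, with GAGAG or its complement CTCTC in capitals. The first 4 are the strongest summits at Dr, mid, esg and sna, and the last 4 are stronger thresholded summits that lie farther than 2 kb from their gene (described further on).
Dr, chr3R:29567064-29567264: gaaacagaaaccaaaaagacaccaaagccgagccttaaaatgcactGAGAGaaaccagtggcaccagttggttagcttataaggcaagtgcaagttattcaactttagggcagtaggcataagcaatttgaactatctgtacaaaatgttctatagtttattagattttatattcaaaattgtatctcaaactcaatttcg
mid, chr2L:5461239-5461439: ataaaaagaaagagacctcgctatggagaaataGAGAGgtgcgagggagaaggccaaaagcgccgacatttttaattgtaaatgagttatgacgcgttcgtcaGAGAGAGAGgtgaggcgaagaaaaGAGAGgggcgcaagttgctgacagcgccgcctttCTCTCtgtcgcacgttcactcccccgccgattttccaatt
esg, chr2L:15337288-15337488: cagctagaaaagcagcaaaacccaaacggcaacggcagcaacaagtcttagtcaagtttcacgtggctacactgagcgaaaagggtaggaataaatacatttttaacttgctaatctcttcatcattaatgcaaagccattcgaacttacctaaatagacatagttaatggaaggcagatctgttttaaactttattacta
sna, chr2L:15478411-15478611: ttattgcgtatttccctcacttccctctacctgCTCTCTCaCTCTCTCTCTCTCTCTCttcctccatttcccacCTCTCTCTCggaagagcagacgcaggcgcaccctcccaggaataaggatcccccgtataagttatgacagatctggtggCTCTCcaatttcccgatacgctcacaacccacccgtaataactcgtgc
between slp1 and slp2, chr2L:3832432-3832632: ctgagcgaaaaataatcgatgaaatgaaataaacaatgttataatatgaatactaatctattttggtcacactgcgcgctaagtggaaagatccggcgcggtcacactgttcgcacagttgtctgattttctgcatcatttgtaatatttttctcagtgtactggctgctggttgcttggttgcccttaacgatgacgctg
downstream of mid, chr2L:5476744-5476944: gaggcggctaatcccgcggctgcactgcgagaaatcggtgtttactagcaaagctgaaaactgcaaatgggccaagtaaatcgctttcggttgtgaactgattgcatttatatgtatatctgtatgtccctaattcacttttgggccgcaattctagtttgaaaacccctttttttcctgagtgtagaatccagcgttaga
downstream of odd, nearer, chr2L:3598579-3598779: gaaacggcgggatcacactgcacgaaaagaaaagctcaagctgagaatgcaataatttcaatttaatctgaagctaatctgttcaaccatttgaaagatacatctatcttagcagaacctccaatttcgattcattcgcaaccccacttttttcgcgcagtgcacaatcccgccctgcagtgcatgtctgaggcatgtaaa
downstream of odd, farther, chr2L:3594123-3594323: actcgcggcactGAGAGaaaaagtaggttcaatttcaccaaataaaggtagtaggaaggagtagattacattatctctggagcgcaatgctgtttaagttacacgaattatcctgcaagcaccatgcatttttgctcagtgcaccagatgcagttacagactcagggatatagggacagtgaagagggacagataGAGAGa
The sna window carries 13 overlapping GAGAG matches, the mid window 6, the Dr window 1 and the esg window none. Of the summits beyond 2 kb shown, the farther one downstream of odd carries 2 matches and the other 3 carry none. The windows were picked as examples, and the shares over all windows are given further on.

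Among segment polarity genes, inv and en are neighbouring homeodomain genes expressed in the posterior of each segment. The inv peak (chr2R:11500460-11500875) lay in an intron, 24960 bp from the nearest start of inv, at pooled rank 2606 with signal 133. Its matched summit had signals of 36.6, 41.4 and 53.2 in replicates 1, 2 and 3, a mean of 43.8 ± 8.55 (SD, n = 3), at ranks 4029, 3268 and 2113. Replicates 2 and 3 thus placed it past rank 3833 and replicate 1 just short of it.

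The en peak (chr2R:11527985-11528400) lay 17 bp from the start of en, at pooled rank 3293 with signal 116. Its replicate signals were 17.9, 31.5 and 49.3, a mean of 32.9 ± 15.8 (SD, n = 3), and its ranks 19938, 5183 and 2419. Only replicate 3 put this peak past rank 3833, and replicate 1 was the lowest. Weaker pooled summits stood 1590 bp upstream of the en start at rank 7756 and in its coding sequence at rank 10034, and each was matched in all 3 replicates. At the inv promoter, 162 bp from a start, a summit of rank 6435 was matched in all 3 replicates at 28.2 ± 5.53 (SD, n = 3). The 14.31 kb between inv and en held 1 pooled summit, at rank 25586, and no thresholded one.

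The other segment polarity genes fell short of the threshold. The T-box gene mid, which is also used in the nervous system, came closest, with a summit 300 bp from its start at pooled rank 4287 and signal 98.7. This summit was found in replicate 1 at 61.1 (rank 1602) and in replicate 2 at 26.5 (rank 6822), and was not matched in replicate 3. The replicates therefore disagreed on it. The paired-domain genes gsb and gsb-n, which lie 9.632 kb apart, had best pooled ranks of 7301 and 8946. The gsb summit was 64 bp from its start, whereas the gsb-n summit lay in the downstream flank, 13068 bp from its own start and 6886 bp from that of Nplp1.

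Among neuroblast genes, grh had the strongest peak of the 34 genes. It encodes Grainyhead, a late factor of the neuroblast timing series that is also known in epidermis. The grh peak (chr2R:17804793-17805208) was intronic, 2134 bp from the nearest start, at pooled rank 2090 with signal 152. Replicate signals were 37.4, 69.5 and 43.7, a mean of 50.2 ± 17.0 (SD, n = 3), at ranks 3859, 1255 and 3007. Replicate 2 was the highest and replicate 1 stood at the threshold rank. In all, grh held 18 of the 122 pooled summits at the 34 genes, the next at rank 5538 beside a start (27.8 ± 9.63, SD, n = 3).

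Dr (Drop, also called msh) encodes the homeodomain protein of the dorsal column of the neuroectoderm. The Dr peak (chr3R:29566956-29567371) lay 1920 bp past the end of the gene and 10778 bp from its start, at pooled rank 3379 with signal 115, so it counts only through the 2 kb flank. Its replicate signals were 32.1, 46.9 and 36.0, a mean of 38.3 ± 7.69 (SD, n = 3), at ranks 5258, 2643 and 4203. Replicate 2 alone put it past rank 3833. A second Dr summit, 31 bp from a start, ranked 7639 in the pooled list.

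The vnd and ind genes, whose homeodomain products mark the ventral and intermediate columns, had no strong summit. The best vnd rank was 16272, among 8 weak summits over the 20031 bp of gene and flanks. No pooled summit was found at ind, and its best summits were at ranks 17543 and 17221 in replicates 1 and 2.

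Prospero, made from pros, enters the nucleus of the daughter cell of a neuroblast division and promotes differentiation. The pros peak (chr3R:11372582-11372997) lay 2 bp from an annotated start, at pooled rank 3640 with signal 109. Replicate signals of 35.7, 39.1 and 33.5 gave a mean of 36.1 ± 2.83 (SD, n = 3), the tightest of the 5, at ranks 4230, 3626 and 4771. Within pros a different summit was stronger in each replicate list. It lay in a 3′ untranslated region 20202, 20213 and 20200 bp from the nearest start in replicates 1, 2 and 3, at ranks 2997, 3187 and 3494 with signals 42.9, 42.1 and 40.2, and the pooled list held no summit there. Because of it, pros was the only one of the 34 genes with a summit past rank 3833 in all 3 replicate lists, against a background of 23.9%.

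Just below the threshold were esg and SoxN. The esg gene encodes a Snail-family zinc finger protein, and its best summit (rank 4552, signal 94.6) lay downstream, 3522 bp from its start, with a replicate mean of 28.8 ± 7.72 (SD, n = 3), replicate 1 being the lowest. SoxN, a SoxB gene of the early neuroectoderm, had a summit 39 bp from its start (rank 4671, signal 93.1). Its replicate signals were 26.3, 24.0 and 54.8, so replicate 3 stood well above the other pair. Of the 5 thresholded peaks at these genes the weakest, that of pros, stood at a signal of 109, and those of the strongest unthresholded ones at 98.7 (mid), 94.6 (esg) and 93.1 (SoxN).

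The remaining neuroblast genes ranked from 6131 to 18339. The POU-domain genes nub and pdm2, which act in the middle of the timing series, had best ranks of 6131 and 8738. The nub summit, 592 bp from a start, was at 46.9 in replicate 1 and 36.6 in replicate 3 and was not matched in replicate 2. The 29.029 kb between nub and pdm2 held 8 pooled summits, the best at rank 9442. D (Dichaete, a SoxB protein) stood at 6685 and was matched in all 3 replicates at 24.4 ± 9.51 (SD, n = 3). The other two Snail-family genes, sna and wor, stood at 10065 and 18339, the orphan nuclear receptor gene svp at 10417, and the late timing gene cas at 18048. The sna summit was matched in replicate 1 only, at 24.0.

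The pair-rule genes had pooled summits but no thresholded ones. The zinc finger gene opa ranked highest at 5775, with signal 80.5 and a summit 325 bp from its start that was matched in replicate 2 alone, at 38.2. Replicate 3 had its own opa promoter summit 302 bp away, at 37.1. The forkhead genes slp1 and slp2 followed at 6501 and 7708, and the slp1 summit was matched in all 3 replicates at 25.1 ± 6.65 (SD, n = 3). Then came odd at 9514, h at 9517, eve at 11712, ftz at 15845 and run at 23411. Of these, h reached rank 2748 in replicate 1 and 4407 in replicate 2, at summits that lay apart. The homeodomain gene prd had no pooled summit and replicate ranks of 20230 or weaker.

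By best pooled rank the gap genes were the weakest class, though the classes were not matched for gene length. Of 6, 4 had any pooled summit (background 80.6% of genes), with best ranks of 12187 for kni, 13569 for tll, 18410 for hb and 23755 for Kr. The hb summit was matched at 19.8 in replicate 3 only and the Kr summit at 13.9 in replicate 3 only. The tll summit was matched in all 3 replicates, at 15.5, 14.7 and 17.2, well below the signal of about 38 at rank 3833. Neither gt nor hkb had a pooled summit, and their best replicate ranks were 15257 and 16061.

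Over all 34 genes the median best pooled rank was 9515.5, and over all protein-coding genes 7927, a gene without a pooled peak being given rank 30001. By class the median was 21082.5 for gap, 9517 for pair-rule, 4287 for segment polarity and 7711.5 for neuroblast genes. In the replicate lists the median of the 34 was 9479.5, 9856 and 12221.5 (mean 10519 ± 1486, SD, n = 3), and that of all genes 7779, 8487 and 8307 (mean 8191 ± 368, SD, n = 3). With the 2 kb flank the 34 genes had the weaker median in every replicate list, and with the gene alone the direction turned in every list. The medians of the 34 were then 13025.5, 16420 and 17999.5 in replicates 1, 2 and 3, against 23993, 29389.5 and 26588 over all genes, and in the pooled list 15783 against 27247.5. The number of the 34 with a summit past rank 3833 was 4, 5 and 5 in replicates 1, 2 and 3 (11.8%, 14.7% and 14.7%), against 33.6%, 31.6% and 32.4% of all genes. The genes differed between lists: replicate 1 gave h, mid, nub and pros, replicate 2 gave Dr, grh, inv, opa and pros, and replicate 3 gave SoxN, en, grh, inv and pros. No list gave such a summit to 24 of the 34 (70.6%), against 58.2% of all genes. With the 7666 strongest peaks of each list the counts were 12, 13 and 10, against backgrounds of 49.7%, 47.6% and 48.2%. With the 1000 strongest they were 0 in each, against 12.0%, 11.1% and 11.2%.

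**Figure D2:**
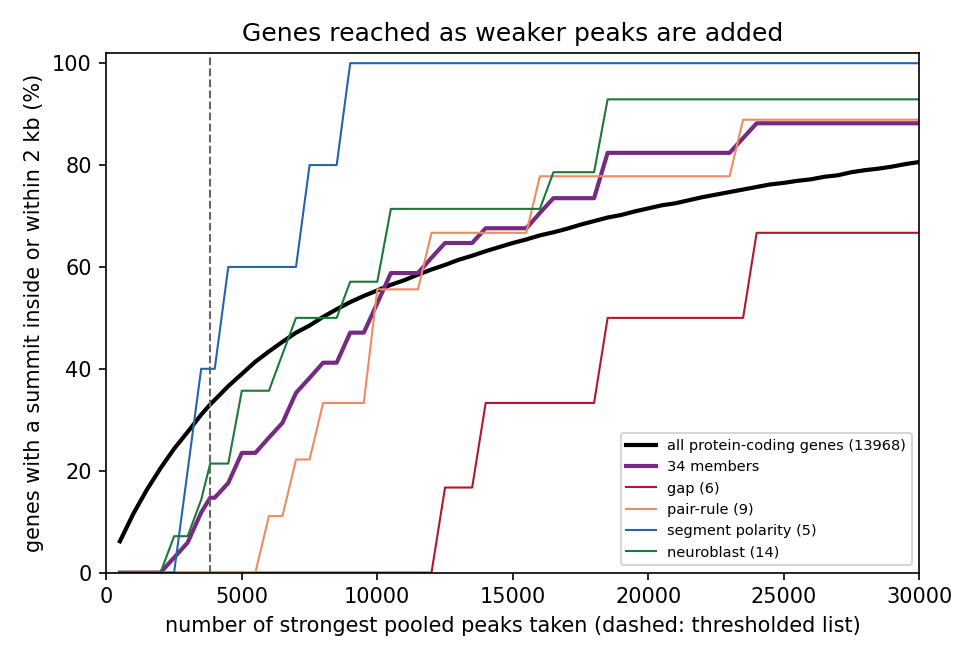
Share of genes with a pooled summit inside or within 2 kb (y axis, %) as more of the strongest pooled peaks are taken (x axis), for all protein-coding genes, the 34 genes and their 4 classes. At the dashed line, rank 3833, the 34 genes stand at 14.7% and all genes at 33.0%, and at rank 10000 they stand at 52.9% and 55.4%.

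Weak summits lay at these genes at a density near that of all genes, and strong ones were fewer. The pooled list had 122 summits in their 533.783 kb, or 22.9 per 100 kb, against 25.6 per 100 kb over all protein-coding genes. Of the thresholded list, 5 summits gave 0.937 per 100 kb against 3.43. Thus 4.10% of the pooled summits at the 34 genes were thresholded, against 13.4% at all genes. Some pooled peak was found at 30 of the 34 (88.2%), against 80.6%. Summits below the threshold were matched in all 3 replicates at a like rate, 21.4% at the 34 genes (25 of 117, 95% Wilson interval 14.9 to 29.6%) and 22.2% over all such summits.

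By length, the 34 genes were longer than most, with a median of 3663 bp against 2164.5 bp, and longer genes were given peaks more often. Of 21 members up to 5 kb, 1 was called (background 27.4%), of 5 between 5 and 15 kb also 1 (background 46.4%), and of 8 over 15 kb 3 (background 54.9%). By class, 5 of 6 gap and 7 of 9 pair-rule genes were up to 5 kb long. The same held for 2 of 5 segment polarity and 7 of 14 neuroblast genes. Of these short genes en alone was called, and none of the 7 neuroblast genes. The class counts and medians are not matched for length. These counts use the 2 kb flank and were not tested.

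The strongest peaks around these genes lay outside the 2 kb flanks. Of the thresholded summits, 11 had a start of one of the 34 genes as the nearest protein-coding start. The 5 above were within 2 kb, and the other 6 lay beyond, at slp2, mid, odd (both of its summits), h and ftz, 4 of them stronger than all of the 5. Giving each thresholded summit to the gene with the nearest protein-coding start thus gave 10 of the 34 genes a peak (29.4%, background 19.8%). Of these, 4 were pair-rule and 3 segment polarity genes, and none gap genes. Nearness of a start does not show which gene a peak acts on.

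The summit between slp1 and slp2 (peak chr2L:3832364-3832652) had pooled rank 161 and signal 550. It stood 4308 bp upstream of the slp2 start and 5433 bp past the end of slp1. Its replicate signals were 170, 186 and 194, a mean of 184 ± 12.5 (SD, n = 3), so the replicates lay close together, and all of them were above every replicate value of the 5 peaks described first. A second summit of this kind (chr2L:5476741-5476963) stood 9234 bp downstream of mid, at pooled rank 413 with signal 372, and had replicate signals of 129, 122 and 124, a mean of 125 ± 3.68 (SD, n = 3). These 2 were the only ones of the 11 among the 1000 strongest peaks. The start of lncRNA:CR45287 was nearer to the second, at 10061 bp, than a start of mid, at 15205 bp.

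Downstream of odd, the zinc finger gene, 2 thresholded summits lay 5545 and 10001 bp past the gene. The nearer (chr2L:3598471-3598886) had pooled rank 1433 and replicate signals of 52.6, 59.2 and 75.7, a mean of 62.5 ± 11.9 (SD, n = 3). The farther (chr2L:3594015-3594430) had rank 2764 and a mean of 40.8 ± 7.30 (SD, n = 3), and was closer to the start of lncRNA:CR43823, at 3922 bp. Downstream of h, which encodes the Hairy repressor of the HES family, a summit at 17532 bp (chr3L:8696577-8696992) had rank 1934 and 59.6 ± 16.2 (SD, n = 3), and the start of lncRNA:CR44526 was nearer, at 4082 bp. Downstream of ftz, a summit at 15577 bp (chr3R:6881613-6882028) had rank 2145 and 46.2 ± 5.77 (SD, n = 3) and lay in lncRNA:CR44931.

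**Figure D3:**
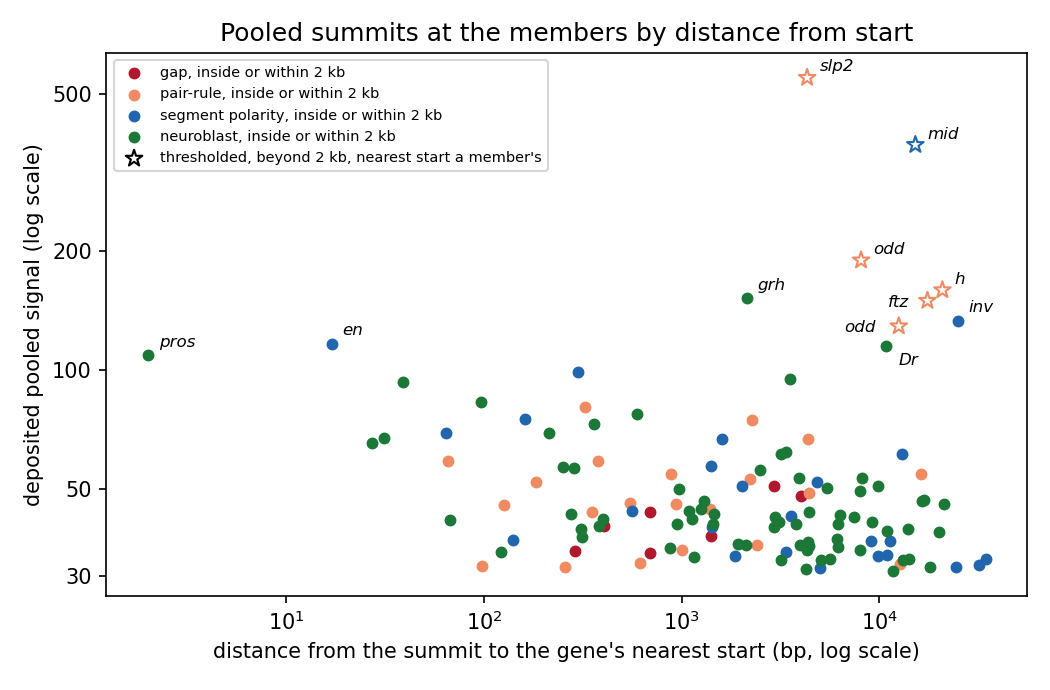
Deposited pooled signal (y axis, log scale) against distance from each summit to the nearest start of its gene (x axis, bp, log scale), for the 122 pooled summits in or within 2 kb of the 34 genes (circles) and the 6 thresholded summits beyond 2 kb (stars). The stars at slp2 and mid, at 550 and 372, lie above every circle, the highest of which is grh at 152.

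**Figure D4:**
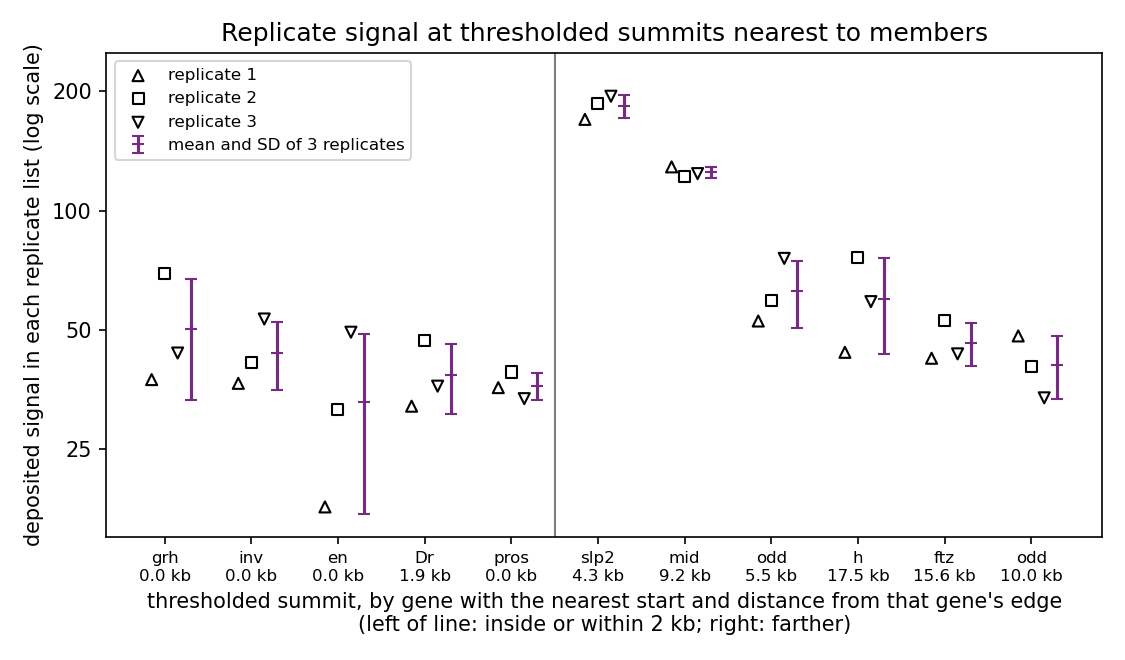
Deposited signal in each replicate list (y axis, log scale; open symbols) with mean and SD of 3 replicates, at the 11 thresholded summits whose nearest protein-coding start belongs to one of the 34 genes (x axis, with distance from the gene in kb). The 5 summits left of the line have means from 32.9 to 50.2, and the 6 right of it from 40.8 to 184.

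Thresholded summits also lay 7323 bp from cas (rank 3370) and 8023 bp from eve (rank 2930), nearer to the starts of other genes. The median distance from a gene of the 34 to the nearest thresholded summit was 16262 bp, against 6275 bp over all genes, and 23 of 34 (67.6%) lay more than 10 kb from one, against 40.4%. All 6 gap genes did, at a median of 15635.5 bp. The longest distances were at esg (154267 bp), SoxN (89906 bp), wor (64825 bp) and D (63989 bp). The intervals from esg to wor (87.158 kb) and from wor to sna (51.012 kb) held 12 and 6 pooled summits and no thresholded one.

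**Figure D5:**
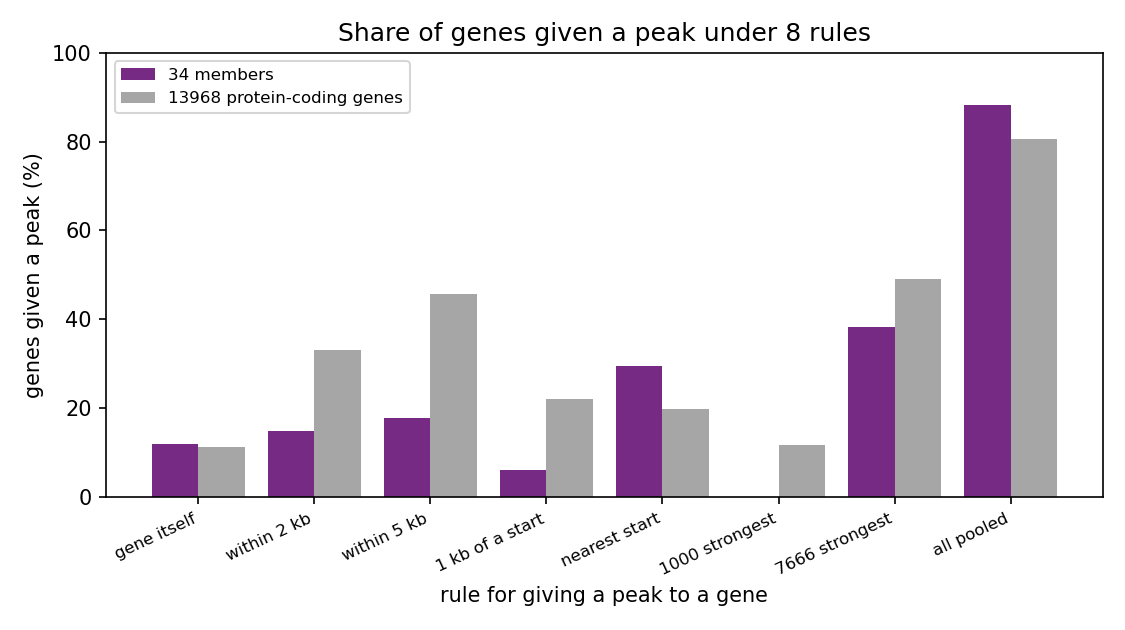
Share of genes given a peak (y axis, %) among the 34 genes and among all 13968 protein-coding genes under 8 rules (x axis). The 34 genes stand at 11.8% against 11.2% for the gene itself and at 14.7% against 33.0% within 2 kb. They stand at 17.6% against 45.7% within 5 kb and at 29.4% against 19.8% when each summit goes to the nearest protein-coding start.

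Most summits at the 34 genes lay in introns, near a start of the gene or in coding sequence. Of the 122 pooled summits at the 34 genes, 31 (25.4%) were within 500 bp of the gene's start, 38 (31.1%) in introns and 30 (24.6%) in coding sequence. Over all pairs of a pooled summit and a protein-coding gene the shares were 24.4%, 24.7% and 12.0%. The downstream and upstream flanks held 11.5% and 5.74% at the 34 genes, against 21% and 15.6% over all pairs. Over all pairs a summit near several genes counts once for each. A summit within 500 bp of a start was found at 22 of the 34 genes (64.7%, background 54.4%), namely at 2 gap, 5 pair-rule, 4 segment polarity and 11 neuroblast genes. The strongest summit of a gene was that close at 15 of 30 genes (50%), against 40.7% of all genes with a pooled summit. Its median distance from the gene's start was 498 bp against 878 bp over all genes. Base composition differed as well: windows at the 34 genes had 51.5 ± 10.1% G and C (SD over 122 windows), all pooled windows 46.2 ± 9.54% and thresholded windows 39.7 ± 7.31%. Its part in the placement or in the signal was not tested.

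The strongest summit of a gene was at the same place in the pooled list and in all 3 replicate lists for 3 of the 30 genes with a pooled summit (slp1, inv and grh), against 39.6% of all such genes. For pros none of the 3 replicate lists had its strongest summit at the pooled place.

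The letters of a Su(H) site (CGTGAGAA, CGTGGGAA, TGTGAGAA or TGTGGGAA, on either strand) were in none of the 122 summit windows, which reach 100 bp to either side. A count of 0 of 122 allows a share of up to 3.05% (95% Wilson interval), which includes the 2.90% of all pooled summits, so a lower share was not detectable with this number of windows. Within 250 bp, 3 of 122 windows (2.46%) held the letters, against 6.23% of pooled summits. These were at weak summits of nub (rank 19244), svp (rank 25736) and grh (rank 12437), where the letters stood 103, 120 and 151 bp from the summit. None of the 6 thresholded summits beyond 2 kb had the letters in its window either, and the nearest copy stood 1250 bp away, at the farther odd summit.

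The letters themselves were present in the genes. The 34 genes with their flanks held 66 copies in 23 genes, 1.24 per 10 kb against 1.03 over all protein-coding genes. The most were in svp (10), grh (7), nub (6) and pros (6). None of the 66 had a pooled summit within 100 bp. At all genes 1320 of 15842 did (8.33%), but there a copy was counted once for each gene window that held it. Copies in overlapping windows thus entered more than once, in the density as well. The absence at the 34 genes is the one already seen in the summit windows, counted by copies and not by windows. The limit given for the windows was set against the share of pooled windows and does not carry over to the share of copies. The difference between none of 66 copies and 8.33% was not tested. A match is only a match of letters, and no binding at any one copy was measured.

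GAGAG letters, a short form of the repeat bound by GAGA factor, were in 16 of the 30 windows at the strongest summit of each gene (53.3%, 95% Wilson interval 36.1 to 69.8%). Over the 7087 distinct strongest summits of all protein-coding genes the share was 24.4% (23.4 to 25.4%), and over those within 500 bp of the gene's start 23.8%. For the 34 genes it was 9 of 15 windows within 500 bp of the start. Within 250 bp of the summit the shares were 63.3% (45.5 to 78.1%) at the strongest summits of the 34 genes and 49.8% at those of all genes, and for those within 500 bp of the start 12 of 15 against 48.8%. These differences were not tested. Over all 122 windows at the 34 genes 39 held the letters, against 25.3% of all pooled windows. The letters of the Zelda site, CAGGTA, were in 4.10% of the 122 windows against 4.67% of pooled ones, and those of the DREF element, TATCGATA, in none against 1.88%.

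Other genes of the same processes, 36 in 5 lists, had a thresholded peak in 16 cases (44.4%, background 33.0%). Their median best rank was 4529.5, against 7927 over all genes. Gene length was not matched: the lists hold genes as long as pum (171340 bp), and the background of genes over 15 kb was 54.9%. By list these were 6 of 10 maternal anterior-posterior genes, 1 of 3 head gap genes, 3 of 8 other segment polarity genes, 3 of 10 neuroblast determinants and 3 of 5 segmentation cofactors. The co-repressor gene gro had the strongest at pooled rank 104 (224 ± 36.0, SD, n = 3), 129 bp from its start. The neuroblast determinants brat, which limits neural stem cell growth, numb, a Notch inhibitor, and insc, a spindle orientation gene, had ranks of 152, 630 and 2345, the insc summit being nearer to the start of sktl. Among maternal genes bcd had a promoter summit at rank 1237 (68.0 ± 1.12, SD, n = 3), pum an intronic one at 618 nearer to the start of lncRNA:CR45196, and those at exu (479) and swa (688) were nearer to the starts of Fem-1 and Marf. In the segment polarity list ptc, the Hedgehog receptor gene, stood at 1241 (nearer to the start of lncRNA:CR44281), nkd at 1381 and smo at 1610, the last nearest to the start of CG17078. The head gap gene oc stood at 3347, and of the cofactors cnc at 1617 and ftz-f1 at 1802, nearer to the start of lncRNA:CR45938.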

How the data were processed

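Su(H)-eGFP ChIP-seq was measured in 3 biological replicates of 0 to 24 h embryos, numbered as in the labels, with chromatin sheared to between 200 and 800 bp per the labels. Per the labels the precipitation used an antibody to GFP, though another label field names Su(H). Per the lists of files deposited, each replicate list came from 1 library and a control, the pooled list from all 3, and the thresholded list from these by irreproducible discovery rate. No source used here names the aligner, the peak caller or the threshold. Signal values are those the authors deposited and served only to rank peaks within a list and to describe them. The dm3 lists were not used here.

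Summits were taken from the deposited offsets and set against Ensembl release 115 (BDGP6.54) genes and the dm6 sequence, with Python 3.11.15, numpy 2.4.6 and pandas 2.3.3. Summits within 200 bp matched. Wilson intervals are 95% and cover counting error only. Read depth is unknown. Errors are the SD over replicates, which the labels call biological. One member, h, is listed as hry in the annotation, and nos as nanos. The gene-window calls were tested on simulated data, where 200 of 200 planted genes were found among 13968.

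The 34 genes and the other lists were chosen with earlier results of these data known, and no test of a list was made. Every gene of the 34 is named, those with a thresholded peak in full, and of the other lists up to 4 with the strongest peak. Alternatives were the flank, the list length, the assignment of summits, the matching distance and leaving out each replicate.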

Additional observations from a re-analysis of the deposited data

How the results depend on the processing

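The count of 5 genes with a thresholded peak was 4 with the gene alone (Dr lost) and 6 with 5 kb flanks (slp2 gained, so pair-rule genes rose from 0 to 1). It was 2 within 1 kb of a start, 10 by nearest start, 0 with the 1000 strongest peaks and 13 with the 7666 strongest. Requiring matches within 200 or 500 bp in all 3 replicates left 5, as 97.9% of all thresholded summits were so matched. Leaving out replicate 1, 2 or 3 dropped only a match already met, on a list made from all 3 libraries, so the 5 could not change and says nothing about stability. The mean count over replicate lists, 4.67 ± 0.577 (SD, n = 3), was 0 with the 1000 strongest peaks of each and 11.7 with the 7666 strongest, and from 4.5 to 5 with a replicate left out. The median best pooled rank, 9515.5, was 15783 with the gene alone and 8448.5 with 5 kb flanks. With the gene alone the median over all genes was 27247.5, and 11.8% of the 34 genes were called against 11.2% of all. With 5 kb flanks the median over all genes was 4502.5, and 17.6% of the 34 were called against 45.7%. The weaker median and the lower share of the 34 genes thus hold with the 2 kb and 5 kb flanks and not with the gene alone. Within 1 kb of a start the share of the 34 was also the lower one, 5.88% against 22% of all genes. By nearest protein-coding start the share of the 34 was the higher one, 29.4% against 19.8%. For the mid, h, ftz and farther odd summits the start of a lncRNA gene was nearer. With a replicate left out, the mean signal ranged from 24.7 to 40.4 at en, 39.0 to 47.3 at inv, 34.6 to 37.4 at pros, 40.6 to 56.6 at grh and 34.1 to 41.5 at Dr. The causes were not tested. No paired analysis was possible because there was 1 group and no contrast. With read depth unknown, weak summits cannot be told from those missed for depth.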

Other observations

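The 3′ summit of pros, at ranks 2997, 3187 and 3494 of the replicate lists, had no summit of the pooled list within 500 bp. Of 2196 summits of replicate 1 past rank 3833 with a match past that rank in both other replicates, 2194 had a pooled summit that near and 2 did not (0.0911%). The cause was not tested. The 6 thresholded summits beyond 2 kb had a median pooled rank of 1683.5, and the 5 within 2 kb 3293.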
